A study of Sus scrofa with 6 samples.

Results

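Mitochondrial beta-oxidation and ketone body metabolism were followed through 30 listed genes in the liver of adult pigs born with intrauterine growth restriction (IUGR) and of pigs of normal birth weight. The genes were listed by their known roles, but the list was chosen with earlier results of these data known. For ACADVL, SLC22A5 and HADHA, each listed in 2 rows, the row was also picked by its measured level. Of the 30, 24 were present in the expression table by symbol and all 24 passed the filter of a mean of at least 0.3 FPKM (fragments per kilobase of transcript scaled to the fragments of the library, a level per transcript length). They are 24 of the 14727 known loci tested, out of 22571 known and 121055 assembled loci in the table. HADHB, ACAD10, BDH1 and BDH2 were located only by their Ensembl identifiers, so their values are given apart from the counts over the 24 genes. MLYCD and ACOT2 were not analysed here.

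Liver RNA from 6 pigs of the PIC breed was sequenced with poly-A selection, 3 pigs of normal birth weight and 3 IUGR pigs. All were males aged 150 days that had been chosen as IUGR and normal littermates and reared in the same environment. After the milk formula the diets were adjusted to body weight, which stayed lower in the IUGR pigs of the study. Feed was withheld for a day before slaughter. All animals of the study had also been given intravenous dextrose in a glucose tolerance test shortly before slaughter. The groups were defined by birth weight, and the labels name no agent or genetic change in either. Each library came from 1 pig, so a p-value here measures the spread between pigs, and a piece of whole liver cannot tell fewer cells of a type from less RNA per cell.

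Fatty acids are burned in mitochondria by a repeated cycle of oxidation, hydration, oxidation and cleavage, each turn of which releases acetyl-CoA. Long chains first have to enter as carnitine esters, and the electrons of the first oxidation leave through the electron transfer flavoprotein. In the fasted liver much of the acetyl-CoA is turned into ketone bodies, which the liver exports and other tissues burn.

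Over all loci, the libraries differed in ways that the groups did not share. In the study's alignment summary normal 1, IUGR 2 and IUGR 3 had a larger share of mapped reads than normal 2, normal 3 and IUGR 1, and these are called the high-mapping and low-mapping libraries. The median log2(FPKM + 1) over tested loci was 2.61 to 2.79 in the former and 2.27 to 2.54 in the latter, and 89.2% of tested loci had a higher mean in the high-mapping libraries. Transferrin, TF, was listed at 0 with a status of too many fragments in exactly the high-mapping libraries, and albumin, ALB, in every library. No gene among the 24 had a failed status in any library. The summed FPKM of the hepatocyte markers, of which 9 of 10 passed the filter, was 24835 to 36217 in normal and 30130 to 37355 in IUGR pigs. TF added 4780 to 7906 FPKM to the sums of the low-mapping libraries and nothing to the others, so the sums cannot be compared between the library sets. The tissue carried hepatocyte markers as labelled, apart from ALB. Markers of stellate cells and fibroblasts summed to 112 to 133 FPKM in normal and 273 to 347 in IUGR livers, with 9 of 10 positive and 5 of 10 higher without overlap, where 8.39% of all loci were. COL3A1 was listed at 0 in normal 1 with a failed estimate, and without that gene the sums were 56.5 to 112 and 118 to 148. Neutrophil markers summed to 5.07 to 11.9 and 14.8 to 25.4 FPKM, with 7 of 7 positive. IUGR 2 and IUGR 3 lay closer to each other than any other pair, with a robust SD of their log2 ratio of 0.104 against 0.259 to 0.326.

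The 24 genes covered more than 3 orders of magnitude in level. ACAA2, ACADSB, DECR1 and ACADM were the most abundant, with means over the 6 pigs of 475, 461, 402 and 396 FPKM, and ETFA, HADH, ECHS1, ACAT1 and ACAD11 followed at 229, 218, 211, 182 and 117 FPKM. These 9 genes had a mean of at least 100 FPKM. At the other end SLC22A5, OXCT1, CPT1C and CPT1B lay at 2.47, 2.14, 0.97 and 0.438 FPKM. The FPKM of the 24 genes added up to 3911, 2532 and 2273 in normal 1 to 3 and to 2878, 4288 and 3849 in IUGR 1 to 3. The groups overlapped in this sum (2905 ± 881 against 3671 ± 722, mean ± SD, n = 3 each), and its 3 highest values were those of the high-mapping libraries.

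**Figure D1:**
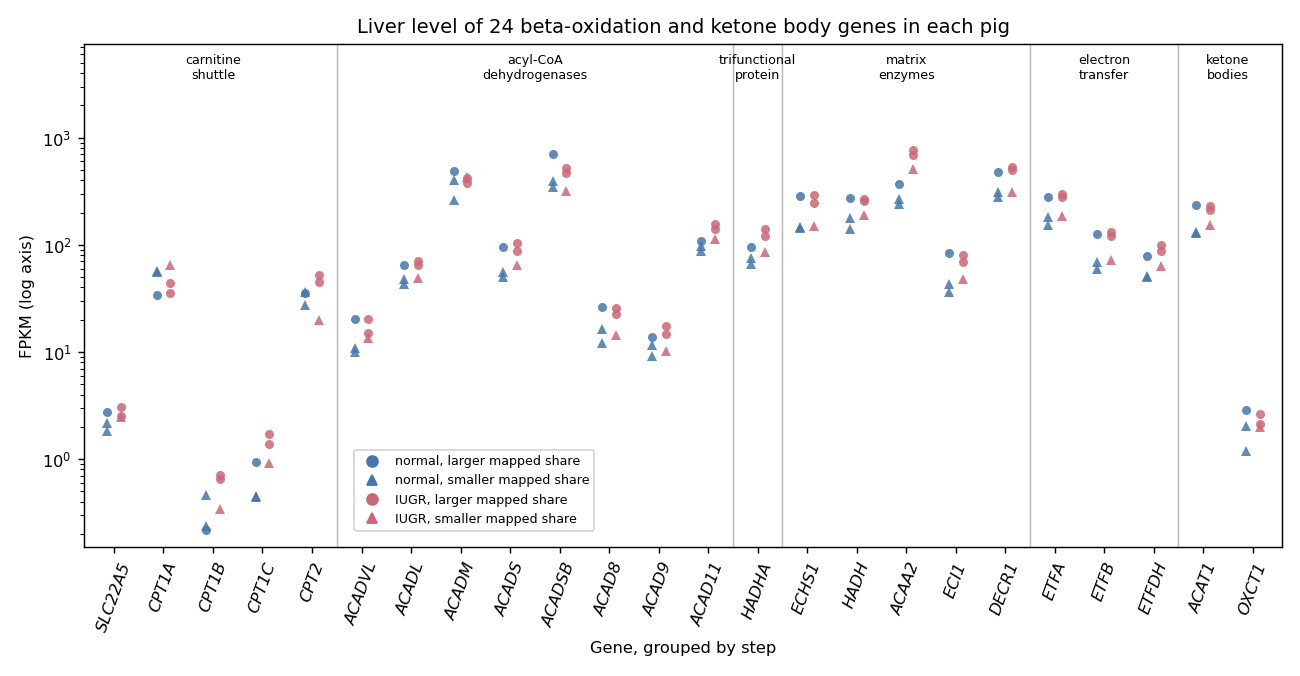
FPKM of each of the 24 genes in each pig on a log axis, grouped by step, with normal pigs in blue, IUGR pigs in red, circles for the high-mapping and triangles for the low-mapping libraries. The levels run from CPT1B at a mean of 0.438 FPKM to ACAA2 at 475 FPKM, and circles lie above triangles for most genes, with CPT1A as the opposite case.

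Comparing IUGR with normal pigs, 22 of the 24 genes had a positive and 2 a negative log2 fold change, with a median of 0.28 and a range from -0.11 to 1.17. The same median over all 14727 loci was 0.15, and 79.2% of loci were positive, so the median of the 24 genes stood 0.13 above it, and 19 genes lay above and 5 below. No gene of the 24 was called higher or lower by limma at an adjusted p under 0.05, where 0.00679% of all loci were called higher and 0.0136% lower. At an unadjusted p under 0.05 there were 2 genes higher and 0 lower among the 24, against 6% and 0.794% of all loci. The groups did not overlap for 2 genes that were higher in IUGR and for 0 that were lower, against 8.39% and 1.22% of all loci. These shares lay near the background and are no result about the list. Without normal 1 the median of the 24 genes was 0.56, and without normal 3 it was 0.15.

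The difference between high-mapping and low-mapping libraries was larger than that between the groups. It was positive for 23 of the 24 genes with a median of 0.65, against a median of 0.32 for all loci. The library sets did not overlap for 18 genes that were higher and 1 that was lower in the high-mapping libraries, against 44.3% and 1.14% of all loci. With the library set as a second factor the median log2 fold change of the 24 genes for IUGR was 0.09, against 0.06 for all loci, and after scaling every library to the same median it was 0.11 against 0.016. Relative to the median of all loci, the deviation of the median gene was 0.08, -0.17 and -0.13 in normal 1 to 3 and -0.14, 0.24 and 0.21 in IUGR 1 to 3. IUGR 1 thus stood with normal 2 and normal 3, and normal 1 lay between them and the other IUGR pigs.

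**Figure D2:**
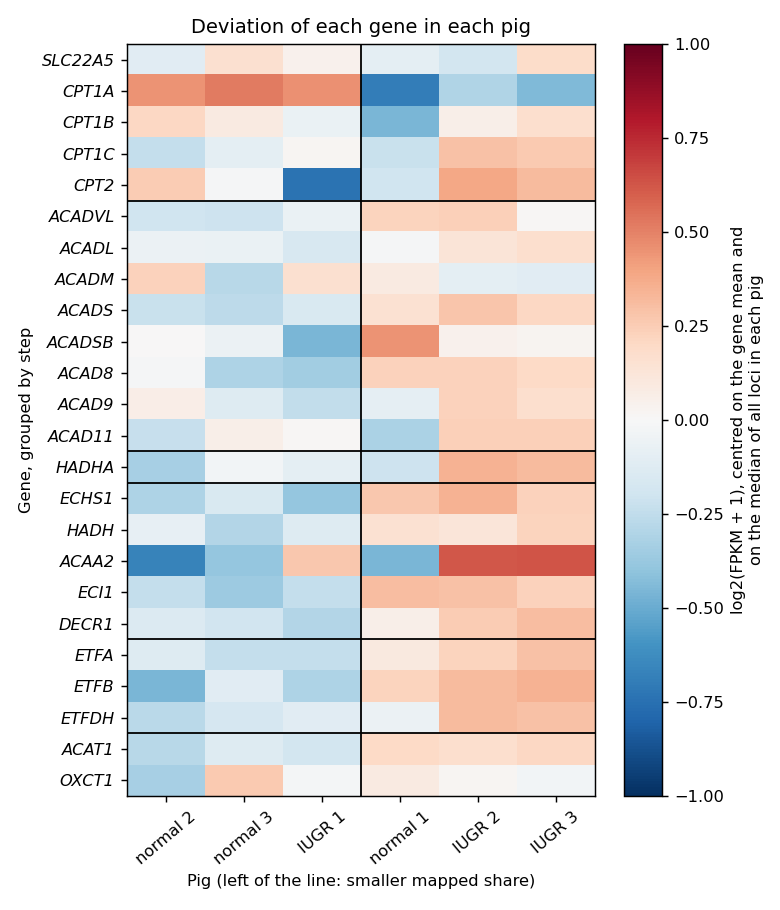
Deviation of each gene in each pig in log2(FPKM + 1), centred on the mean of the gene and on the median of all loci in the pig, with the low-mapping libraries left of the vertical line. Most genes are low on the left and high on the right, CPT1A is the reverse, and ACAA2 is low in all normal pigs and high in all IUGR pigs.

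Carnitine shuttle. CPT1A, the liver form of the outer membrane enzyme that joins long-chain fatty acids to carnitine and the main control point of their entry, is encoded on chromosome 2 from 2815220 to 2874163 of the Sscrofa10.2 build. Its FPKM was 34.1, 57.5 and 55.6 in normal 1 to 3 and 64.4, 44.1 and 35.7 in IUGR 1 to 3. The groups covered nearly the same range, and the 3 lowest pigs were the high-mapping ones. The means were 49.0 ± 13.0 and 48.1 ± 14.7 FPKM, with a log2 fold change of -0.03 (SE 0.32, limma adjusted p = 0.982, 95% interval -0.73 to 0.66). Compared within the libraries of one kind, IUGR minus normal was 0.21 in the high-mapping and 0.19 in the low-mapping libraries, and with the library set in the fit it was 0.20, so the sign of the CPT1A difference changed with that factor. No other gene of the 24 was lower in the high-mapping libraries, where the difference of CPT1A was -0.63.

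CPT1C is a related protein known mainly from the brain, encoded on chromosome 6 from 50462003 to 50476784. Its FPKM was 0.931, 0.443 and 0.457 in normal pigs and 0.913, 1.71 and 1.37 in IUGR pigs. Normal 1 and IUGR 1 were level, so the groups just overlapped, and the other IUGR pigs were higher than every normal pig. The log2 fold change was 0.53 (SE 0.18, limma adjusted p = 0.529, 95% interval 0.14 to 0.92), and it was 0.39 and 0.40 within the high-mapping and low-mapping libraries.

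CPT1B, the muscle form, was listed at 0.216, 0.466 and 0.239 FPKM in normal pigs and 0.341, 0.707 and 0.656 in IUGR pigs. The groups overlapped, and the difference of 0.26 (limma adjusted p = 0.822) was 0.47 within the high-mapping and -0.01 within the low-mapping libraries. Of 6 skeletal muscle markers found, 1 passed the filter, MYH1 at 0.212 to 0.408 FPKM, a level near that of CPT1B. Below the filter, MYH2 was at 0 to 0.639 FPKM, and ACTA1, the defining skeletal actin, at 0 to 0.0949. CPT2, the inner membrane enzyme that hands the chains back to coenzyme A, had means of 33.2 ± 4.81 and 39.0 ± 17.0 FPKM and went in opposite directions in the library sets, 0.45 in the high-mapping and -0.65 in the low-mapping libraries. SLC22A5, the carnitine importer of the cell membrane, had 2.26 ± 0.479 and 2.68 ± 0.313 FPKM. Over the 5 genes of the shuttle the median log2 fold change was 0.18, which is 0.03 above that of all loci.

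Acyl-CoA dehydrogenases. These flavoenzymes carry out the first oxidation, each for a range of chain lengths. ACADM, for medium chains, had 385 ± 114 FPKM in normal and 407 ± 29.7 in IUGR livers. ACADVL, for very long chains, had 13.7 ± 5.62 and 16.2 ± 3.44 FPKM, ACADL, for long chains, 52.2 ± 11.6 and 61.9 ± 11.3, and ACADS, for short chains, 67.5 ± 25 and 85.8 ± 19.3. All of these overlapped between the groups, with log2 fold changes from 0.13 for ACADM to 0.38 for ACADS. ACADVL was read from the locus on chromosome 3, since a second locus of that symbol was close to 0.

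ACADSB, which acts on short branched chains from isoleucine, was the most abundant dehydrogenase. Its FPKM was 711, 394 and 348 in normal 1 to 3 and 317, 527 and 468 in IUGR 1 to 3. Normal 1 had the highest and IUGR 1 the lowest value, and the groups overlapped. The log2 fold change was -0.11 (SE 0.39, limma adjusted p = 0.958), and ACADSB was the only gene of the 24 with a negative difference within both library sets, -0.52 in the high-mapping and -0.23 in the low-mapping libraries.

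ACAD11, a family member encoded on chromosome 13 from 81305209 to 81403413, was 1 of the 2 genes whose groups did not overlap. Its FPKM was 108, 87.2 and 97.8 in normal pigs and 114, 157 and 141 in IUGR pigs. Every IUGR pig lay above every normal pig, by a narrow margin between normal 1 and IUGR 1. The means were 97.7 ± 10.4 and 137 ± 21.7 FPKM, and the log2 fold change of 0.48 (SE 0.30, limma adjusted p = 0.852, 95% interval -0.16 to 1.12) was 0.46 and 0.30 within the high-mapping and low-mapping libraries.

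Of the remaining dehydrogenases, ACAD8, which acts in valine breakdown, had 18.2 ± 7.28 and 20.8 ± 5.88 FPKM. ACAD9, which also helps to assemble respiratory complex I, had 11.6 ± 2.41 and 14.1 ± 3.59 FPKM. ACAD10, located by identifier, had 3.40 ± 1.32 and 4.15 ± 0.776 FPKM. None of the 3 separated the groups. The median log2 fold change of the 8 dehydrogenases counted was 0.25, which is 0.10 above that of all loci.

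Trifunctional protein. HADHA and HADHB encode its alpha and beta subunits, which together run the last 3 reactions of the cycle on long chains. HADHA had 95.9, 66.7 and 75.5 FPKM in normal pigs and 86.5, 140 and 122 in IUGR pigs. IUGR 2 and IUGR 3 were above every normal pig, and IUGR 1 lay below normal 1. The log2 fold change was 0.53 (SE 0.31, limma adjusted p = 0.841), with 0.44 and 0.28 within the high-mapping and low-mapping libraries. HADHB had 60.4 ± 14.8 and 76.8 ± 22.5 FPKM, and the ratio of HADHA to HADHB was 1.24, 1.25 and 1.5 for the normal and 1.70, 1.54 and 1.37 for the IUGR pigs (two-sided exact permutation p = 0.2). Both genes are listed within the same bounds on chromosome 3, from 119649281 to 119785724, and it is not stated whether reads were counted by strand, so reads of overlapping transcripts could have been split between them.

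Matrix enzymes and thiolase. ACAA2, the ketoacyl-CoA thiolase that cleaves acetyl-CoA from medium and short chains at the end of each turn, showed the largest difference of the 24 genes. It is encoded on chromosome 1 from 108842617 to 108870348. Its FPKM was 369, 241 and 270 in normal 1 to 3 and 514, 767 and 689 in IUGR 1 to 3. All 3 IUGR pigs were above all 3 normal pigs, and within each group the high-mapping libraries were the higher ones. The means were 293 ± 67.1 and 657 ± 129 FPKM, a ratio of 2.24, and the log2 fold change was 1.17 (SE 0.36, 95% interval 0.40 to 1.93), which is 1.01 above the median of all loci. The unadjusted limma p was 0.00613, and the limma adjusted p of 0.441 did not pass the threshold.

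The ACAA2 difference was 0.98 within the high-mapping and 1.01 within the low-mapping libraries and 0.99 with the library set in the fit. Leaving out 1 pig at a time gave 1.04 to 1.34. Over the alternatives other than a replicate block the limma adjusted p of ACAA2 ran from 0.0755 to 1.

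ACAA2 also took a larger share of the summed FPKM of the 24 genes in the IUGR livers. The share was 9.43%, 9.52% and 11.9% in normal 1 to 3 and 17.9% in each IUGR pig (10.3 ± 1.38% against 17.9 ± 0.0087%). The groups did not overlap, and the two-sided exact permutation p of 0.1 is the smallest that 3 against 3 pigs can give. IUGR 1, a low-mapping library, and IUGR 2, a high-mapping one, had the same share at sums of 2878 and 4288 FPKM. Against ACAT1, the thiolase of ketone body synthesis, ACAA2 stood at 1.55, 1.87 and 2.05 for the normal and 3.36, 3.35 and 3.29 for the IUGR pigs. Against HADHB, which carries the long-chain thiolase, the ratio was 4.76, 4.50 and 5.37 for the normal and 10.1, 8.44 and 7.76 for the IUGR pigs. Neither ratio overlapped between the groups, each with a two-sided exact permutation p of 0.1. These shares and ratios were chosen after the values had been seen.

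With ACAA2 taken out of the sum, ACADSB made up 20.1%, 17.2% and 17.4% of the remaining FPKM in normal pigs and 13.4%, 15% and 14.8% in IUGR pigs. The groups did not overlap, with ACADSB lower in every IUGR pig. Among these 23 genes the shares of CPT1C, ACADS and ETFDH were the 3 that were higher without overlap, and ACADSB was the 1 that was lower. The ratio of a locus to the same sum did not overlap for 7.33% of all loci in the higher and 5.57% in the lower direction, so the counts were near the background.

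**Figure D3:**
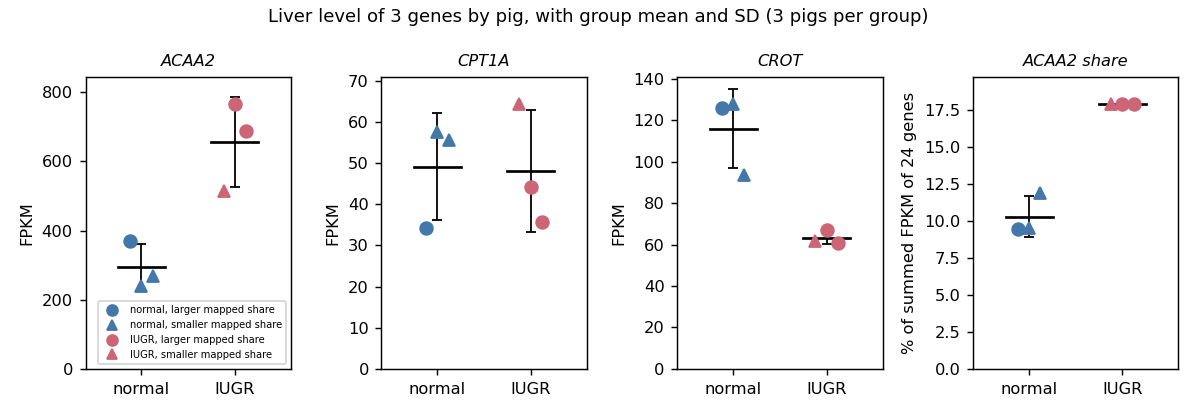
FPKM of ACAA2, CPT1A and CROT in each pig and the share of ACAA2 in the summed FPKM of the 24 genes, with bars at the mean and whiskers of 1 SD (n = 3 per group). ACAA2 runs from 241 to 369 FPKM in normal and from 514 to 767 in IUGR pigs, CPT1A overlaps, CROT is lower in all IUGR pigs, and the ACAA2 share is 17.9% in each IUGR pig.

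The other enzymes of this step did not separate the groups. ECHS1, the short-chain enoyl-CoA hydratase, had 192 ± 80.5 and 230 ± 73.2 FPKM, and HADH, the hydroxyacyl-CoA dehydrogenase of shorter chains, 198 ± 69.7 and 237 ± 40.3. DECR1 and ECI1, the reductase and the isomerase needed for unsaturated chains, had 356 ± 106 and 448 ± 119 FPKM and 54.2 ± 25.6 and 66.0 ± 17.0 FPKM. Their log2 fold changes lay between 0.28 and 0.34, each limma adjusted p was at least 0.894, and with the library set in the fit they lay between -0.02 and 0.10. The median of the step was 0.33 for 5 genes.

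Electron transfer. ETFA and ETFB encode the subunits of the electron transfer flavoprotein, and ETFDH the inner membrane enzyme that passes its electrons to ubiquinone. ETFA had 279, 180 and 152 FPKM in normal pigs and 184, 298 and 279 in IUGR pigs. Normal 1 equalled IUGR 3, and normal 2 equalled IUGR 1 within a few FPKM, so the groups overlapped (log2 fold change 0.33, SE 0.36, limma adjusted p = 0.896). ETFB had 84.4 ± 35.7 and 108 ± 31.8 FPKM. The ratio of ETFA to ETFB ran from 2.2 to 3.06 in normal and from 2.25 to 2.54 in IUGR pigs, with a two-sided exact permutation p of 1.

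ETFDH had 78.6, 51.1 and 50.3 FPKM in normal pigs and 63.5, 100 and 88.3 in IUGR pigs. IUGR 1 lay under normal 1 and above the other normal pigs, so the groups overlapped. The log2 fold change was 0.48 (SE 0.31, limma adjusted p = 0.861), with 0.26 and 0.32 within the high-mapping and low-mapping libraries.

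**Figure D4:**
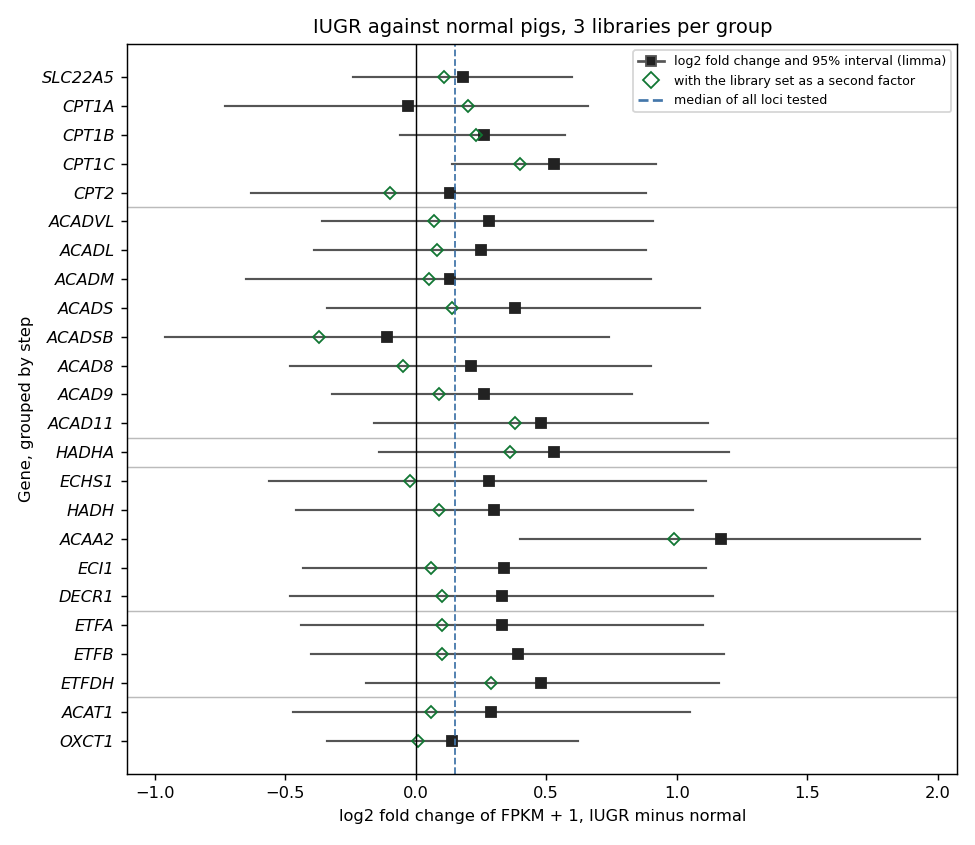
Log2 fold change of FPKM + 1, IUGR minus normal, for the 24 genes with the 95% interval from limma (squares and lines), and the value with the library set as a second factor (open diamonds). The dashed line is the median of all loci at 0.15. The intervals of ACAA2 and CPT1C alone lie above 0, without adjustment for the number of loci, and most diamonds lie left of their squares.

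Ketone bodies. ACAT1 joins acetyl-CoA units at the start of ketone body synthesis. It had 238, 129 and 131 FPKM in normal pigs and 153, 229 and 210 in IUGR pigs. Normal 1 was the highest pig of all, the groups overlapped, and the log2 fold change was 0.29 (SE 0.35, limma adjusted p = 0.897). BDH1, which interconverts acetoacetate and beta-hydroxybutyrate in mitochondria, had 27.1 ± 6.59 and 33.8 ± 5.39 FPKM, and BDH2, a related cytosolic dehydrogenase, 29.1 ± 15 and 31.1 ± 7.21. OXCT1, which tissues other than the liver use to burn ketone bodies, had 2.02 ± 0.832 and 2.25 ± 0.321 FPKM, far below ACAT1 and BDH1 in every pig. The median log2 fold change was 0.39 for the 3 electron transfer genes and 0.21 for the 2 ketone body genes counted, which is 0.24 and 0.06 above that of all loci.

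Compared within the library sets, 10 of the 24 genes were higher in IUGR in both, 1 was lower in both and 12 had opposite signs, with SLC22A5 at 0 in the high-mapping set. ACAA2, CPT1C, ACAD11, HADHA and ETFDH were the 5 genes above 0.2 in both. Each set holds a single pig of one group, so these values carry no test.

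**Figure D5:**
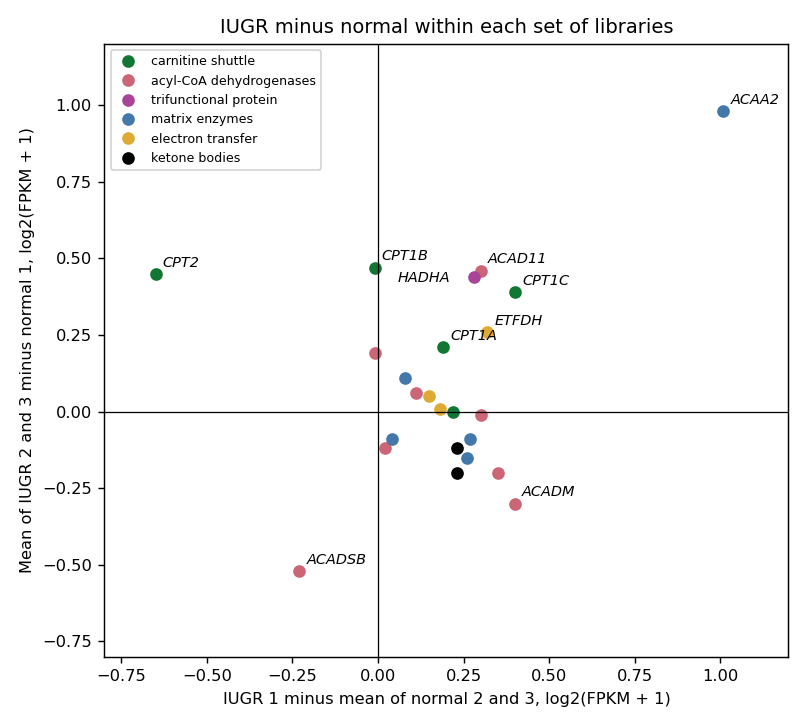
IUGR minus normal in log2(FPKM + 1) for the 24 genes, within the low-mapping libraries on the x axis and within the high-mapping libraries on the y axis, coloured by step. ACAA2 stands alone at 1.01 and 0.98, ACADSB is the one gene below 0 on both axes, and CPT2 and ACADM change sign between the sets.

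Of 27 further genes listed for fatty acid oxidation and ketogenesis, 24 were found and 21 tested. Among them 16 were positive and 5 negative with a median log2 fold change of 0.21, and none was called.

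CROT, the peroxisomal carnitine octanoyltransferase that exports shortened chains toward mitochondria, was lower without overlap in the IUGR pigs. Its FPKM was 126, 128 and 93.8 in normal pigs and 61.9, 66.8 and 61.0 in IUGR pigs. The IUGR pigs were tightly grouped below all normal pigs. The log2 fold change was -0.85 (SE 0.29, limma adjusted p = 0.529), with -0.97 and -0.81 within the high-mapping and low-mapping libraries and -1.0 to -0.77 when 1 pig was left out. SLC25A20, the carnitine-acylcarnitine carrier of the inner membrane, had 31.0 ± 5.15 and 34.7 ± 6.67 FPKM. ACSL4, an acyl-CoA synthetase, had 30.9 ± 22.4 and 56.4 ± 26.7 FPKM, and ACSS1, the mitochondrial acetyl-CoA synthetase, 1.90 ± 0.603 and 2.69 ± 0.393, both overlapping. The ACSL4 locus also carries KCNE5 and another annotated gene, so its value may not be that of ACSL4 alone.

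Of the genes listed for the PPARA axis, the nuclear receptor pathway that switches on fatty acid oxidation in fasting, 16 of 18 were tested, 14 were positive and 2 negative, none was called, and the median was 0.15, the same as for all loci. PPARA itself had 24.1, 27.6 and 27.8 FPKM in normal pigs and 35.9, 25.3 and 23.3 in IUGR pigs. Only IUGR 1 stood above the normal pigs (log2 fold change 0.06, limma adjusted p = 0.961). LPIN1, a phosphatidate phosphatase and nuclear coactivator, was located only by its Ensembl identifier. It had 3.59, 3.22 and 2.17 FPKM in the normal group and 4.53, 7.61 and 6.64 in the IUGR group, which did not overlap (0.86, SE 0.24, limma adjusted p = 0.392).

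PPARGC1A, the coactivator of mitochondrial biogenesis, was located only by its Ensembl identifier, on an unplaced scaffold. It had 8.47, 4.85 and 5.82 FPKM in normal and 3.90, 4.51 and 4.66 in IUGR pigs. Every IUGR pig was lower than every normal pig, with normal 2 and IUGR 3 close together (-0.43, SE 0.24, limma adjusted p = 0.811). FGF21, a fasting hormone of the liver, had 0.386 ± 0.3 and 0.624 ± 0.135 FPKM and VNN1, a pantetheinase, 89.7 ± 45.1 and 122 ± 13.6, both overlapping. The stellate cell and neutrophil marker sums given above were also higher in every IUGR pig than in every normal pig, as ACAA2 and LPIN1 were, and their part in these values was not tested.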

How the data were processed

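Per the labels, the authors aligned liver reads to Sscrofa10.2 with TopHat 2.0.14 and Bowtie 2.0.6, assembled loci with Cufflinks 2.2.1 and deposited FPKM per locus from Cuffdiff 2.1.1 for 6 libraries. Counts were not used here, so the depth behind a single FPKM is unknown, a fold between low values is uncertain, and edgeR 3.2 of the authors could not be applied. The text of the study names Sscrofa11.1 instead. The deposited coordinates overlapped the RefSeq position in Sscrofa11.1 for 0 of 24 genes compared, so coordinates are given with the build of the labels. Whether reads were counted by strand is not given in the sources used here. From the deposited FPKM, log2(FPKM + 1) was fitted with limma 3.58.1 in R 4.3.3 (trend, two-sided, Benjamini-Hochberg adjustment) over 14727 loci with an Ensembl identifier and a mean of at least 0.3 FPKM. The pseudocount of 1 understates changes of low genes. A locus was called at an adjusted p under 0.05. The status was not OK in at least 1 library for 59 loci, of which 33 were tested with their values as listed. The fit was tested on simulated data with independent noise at each locus, changes placed on loci of small spread, and no library sets. That test therefore does not cover data with library sets. The 30 genes, the steps, the pathway and marker lists and the library sets were chosen with earlier results of these data known.

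All genes of the list that were found are given with group means, with values in every pig, or with both. Values in every pig are given for the most abundant gene of each step, for CPT1A, for the 6 genes with the lowest unadjusted p and for any whose groups do not overlap. SLC25A20 and up to 4 genes of lowest p were named from each further list, some genes of which are not reported here. PPARA was added after its values had been seen. Start positions are counted from 1. Figures were drawn with matplotlib 3.10.9, and tables made with Python 3.11.15, pandas 2.3.3 and numpy 2.4.6.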

Additional observations from a re-analysis of the deposited data

How the results depend on the processing

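None of the 24 genes was called under any alternative run, and their median log2 fold change ran from 0.02 (equal sums) and 0.03 (quantile scaling) to 0.30 with other pseudocounts, and from 0.15 (without normal 3) to 0.56 (without normal 1) with 1 pig left out. Counts over all loci, 1 higher and 2 lower, became 12 and 6 with IUGR 2 and IUGR 3 averaged, 2 and 5 with all assembled loci, 5 and 5 without failed estimates, 5 and 6 at a mean FPKM of at least 1, 3 and 1 with a pseudocount of 0.1 and 30 and 6 with robust variances. The lower count was 1 with a pseudocount of 0.01 and 0 without the filter, without the trend and under the 3 scalings. With 1 pig left out, 3 to 128 were higher and 1 to 30 lower, the most without IUGR 1, where all IUGR libraries left are high-mapping. Whether replicate numbers mark litters is not stated. Deviations of same-numbered pigs had correlations of -0.223, -0.0724 and -0.167. Each such pair joins a high-mapping and a low-mapping library, so these values cannot decide it. A replicate block gave 166 and 79 calls, 0 of them among the 24 genes. Signs turned for CPT1A (0.084) and CPT2 (-0.076) with IUGR 2 and IUGR 3 averaged. With the library set as a factor they turned for CPT1A (0.20), CPT2 (-0.10), ACAD8 (-0.05), ECHS1 (-0.022) and BDH2 (-0.097). Quantile scaling turned CPT2 (-0.11), ACADM (-0.26), ECHS1 (-0.039), HADH (-0.0092), ACAT1 (-0.04), OXCT1 (-0.013), BDH2 (-0.0091), SLC25A20 (-0.058) and PPARA (-0.14). Equal medians turned CPT2 (-0.055), ACADM (-0.061), SLC25A20 (-0.029) and PPARA (-0.12). Equal sums turned SLC22A5 (-0.0082), CPT2 (-0.14), ACADL (-0.024), ACADM (-0.15), ACAD8 (-0.048), OXCT1 (-0.034), BDH2 (-0.072), SLC25A20 (-0.11) and PPARA (-0.20). With 1 pig left out the range crossed 0 for CPT1A (-0.27 to 0.15), CPT2 (-0.14 to 0.54), ACADM (-0.13 to 0.32), ACADSB (-0.31 to 0.21), ACAD8 (-0.036 to 0.50), OXCT1 (-0.073 to 0.33), BDH2 (-0.16 to 0.56) and PPARA (-0.12 to 0.18). The cause was not tested. Every gene of the 24 not named in these sign changes, ACAA2 among them, kept its sign throughout, as did CROT.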

Other observations

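Peroxisomal beta-oxidation, which shortens very long and branched chains before mitochondria take them over, was read from 15 listed genes, of which 14 were tested. Of these 10 were positive and 4 negative with a median log2 fold change of 0.25, and none was called. AMACR, the racemase that lets branched chains enter the pathway, had 61.8, 44.2 and 33.6 FPKM in normal pigs and 87.5, 117 and 110 in IUGR pigs, without overlap (log2 fold change 1.19, SE 0.31, limma adjusted p = 0.343). EHHADH, the bifunctional enzyme, had 312 ± 101 and 433 ± 95.3 FPKM, at a locus that also carries another Ensembl identifier. ABCD3, a transporter of the peroxisomal membrane, had 34.3 ± 9.16 and 25.8 ± 4.23 FPKM. ACAA1, the thiolase, located only by its Ensembl identifier, had 79.1 ± 16.8 and 105 ± 20.2 FPKM. All of these genes overlapped between the groups. Thus ACAA1 had a log2 fold change of 0.41 where its mitochondrial counterpart ACAA2 had 1.17, a difference between the genes that was not tested.

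Fatty acid synthesis, the opposing pathway, had 12 of 14 listed genes tested. Of these 11 were positive and 8 were higher at an unadjusted p under 0.05, where 6% of all loci were. The groups did not overlap for 2, which were higher in IUGR, where 8.39% of all loci were. None was called, and the median log2 fold change was 0.81 against 0.15 for all loci. The library sets also differed in these genes, by a median of 0.83 for high-mapping minus low-mapping libraries, against 0.32 for all loci. With the library set as a second factor their median log2 fold change for IUGR was 0.62, against 0.06 for all loci. ELOVL6, the elongase of long saturated chains, had 32.3, 27.1 and 31.6 FPKM in normal pigs and 71.5, 60.5 and 62.8 in IUGR pigs, without overlap (1.08, SE 0.26, limma adjusted p = 0.269). It was 0.91 and 1.26 within the high-mapping and low-mapping libraries. ACSS2, the cytosolic acetyl-CoA synthetase, had 20.4 ± 18.4 and 54.4 ± 16.5 FPKM (1.65, limma adjusted p = 0.405). It was called with limma without normal 1 (2.31) and without IUGR 1 (1.93), and under the replicate block (1.65). Without normal 1 all normal libraries are low-mapping, and without IUGR 1 all IUGR libraries are high-mapping, so group and library set are mixed in these runs. FADS1 and FADS2, the fatty acid desaturases, had 30.3 ± 19.1 and 81.6 ± 35.5 FPKM and 61.7 ± 40.3 and 142 ± 53.0 FPKM (1.45 and 1.30, limma adjusted p = 0.439 and 0.532), and FADS1 was called without IUGR 1 (1.87). In ACSS2, FADS1 and FADS2 normal 1 lay above IUGR 1, so the groups overlapped.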
